A study of Homo sapiens with 4 samples.

Results

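Reductases that act on doxorubicin were examined as 10 genes chosen by symbol: CBR1, CBR3, AKR1A1, AKR1B1, AKR1C1, AKR1C2, AKR1C3, AKR7A2, NQO1 and POR. All 10 were found among the 59050 gene symbols of the deposited counts, and all 10 were among the 17479 genes that passed the filter on low counts. RNA-seq was performed on 4 libraries labelled as HepG2, a cell line from a human liver tumor, to find mRNAs that change when DNA damage activates p53. The 2 untreated libraries (0 h) received no drug, and the 2 doxorubicin libraries came from cells of the same line given doxorubicin at 1 ug/ml for 24 h. All 4 cultures grew in the same medium with serum, and no genetic change is named for any of them. The replicates are described as biological.

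Doxorubicin is an anthracycline, a drug with a quinone ring and a ketone side chain. Carbonyl reductases and aldo-keto reductases use NADPH to turn the side-chain ketone into an alcohol, doxorubicinol, which kills tumor cells less well and is linked to damage of the heart. Flavoprotein reductases act on the quinone instead. Transfer of a single electron gives a semiquinone that passes the electron on to oxygen and forms superoxide, while NQO1 transfers a pair of electrons at once. The liver is a main site of both reactions.

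The 3 AKR1C genes were the reductases that were higher in both doxorubicin libraries than in both untreated libraries, as were 30.3% of all genes tested. AKR1C1 had a mean of 3.36 ± 1.96 CPM (counts of a gene per 1000000 counts of its library, SD, n = 2) in untreated cells and 30.5 ± 1.88 CPM in treated cells. AKR1C2 had 1.81 ± 1.19 and 10.4 ± 1.67 CPM, and AKR1C3 had 50.1 ± 21.5 and 96.5 ± 1.68 CPM. The other 7 genes had log2 fold changes (log2FC, doxorubicin over untreated) between -1.09 and -0.23, and no gene of the 10 passed the thresholds of the test over all libraries. Untreated replicate 2 stood apart from the other libraries. Without that library the log2FC was 2.54 for AKR1C1 and 1.83 for AKR1C2, and without untreated replicate 1 it was 3.87 and 3.34. A fit with 1 untreated library takes its spread from the doxorubicin pair alone.

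The libraries held 27572740 to 36272180 counts. Across the genes tested, the Pearson correlation of log2 CPM was 0.887 for the untreated pair and 0.988 for the treated pair (across genes, which are not independent replicates). Untreated replicate 2 was above the other 3 libraries in 36.6% of the genes tested and below them in 45% of them. Markers of hepatocytes went against the label of the cells. Of 20 such markers 7 passed the filter, ALB had at most 3 counts in any library, APOA1 at most 6 and TTR at most 2, and the 20 summed to 19.6 and 25.9 CPM in untreated cells and to 33.0 and 36.0 CPM in treated cells, of which FOXA1 and, in treated cells, FGG took most. The keratin genes KRT8 (2088 to 4105 CPM), KRT18 (783 to 1793 CPM) and KRT17 (929 to 1587 CPM) and the mesenchymal gene VIM (718 to 1011 CPM) were abundant. COL1A1, COL3A1 and CDH2 had 46.0 to 131 CPM. Several other genes of these lists were near 0, with at most 0.727 CPM for CDH1, EPCAM and KRT19, 0.450 for KRT5, KRT6A and TP63, and 0.0693 for COL1A2. KRT8 and KRT18 made up nearly all of the simple epithelium sum below, KRT17 nearly all of the stratified epithelium sum, and VIM most of the mesenchyme sum. The 5 blood cell markers summed to at most 0.589 CPM. The summed simple epithelium markers were 5899 and 4752 CPM in untreated and 3527 and 3025 CPM in treated cells, the stratified epithelium markers 931 and 1227 against 1594 and 1328 CPM, the mesenchyme markers 1043 and 901 against 1300.2 and 1093 CPM, and the neural markers 3.06 and 12.2 against 3.38 and 3.37 CPM. Their part in the results below was not tested, and in bulk libraries fewer cells of a type and less RNA per cell cannot be told apart.

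**Figure D1:**
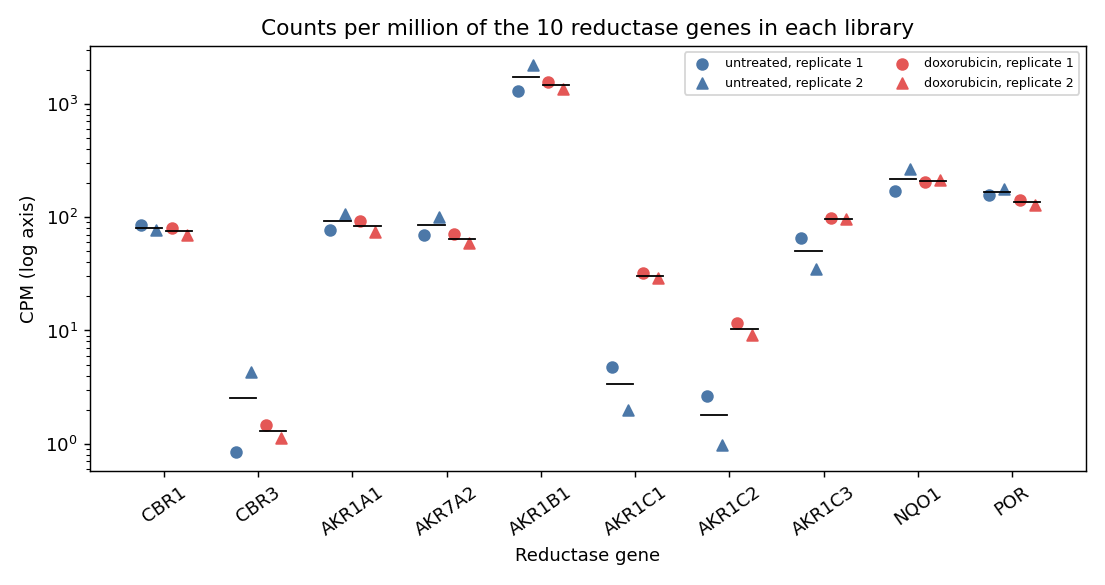
CPM of the 10 reductase genes (log axis) in the 4 libraries, with a circle for replicate 1, a triangle for replicate 2, blue for untreated, red for doxorubicin and a black line for the mean of each group. AKR1C1, AKR1C2 and AKR1C3 are higher in both doxorubicin libraries, CBR3 in untreated replicate 2 (4.26 CPM) lies above its other 3 libraries, and AKR1B1 lies at 1284 to 2187 CPM.

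AKR1C1, AKR1C2 and AKR1C3 are neighbouring genes that arose by duplication. They encode hydroxysteroid dehydrogenases that also reduce drugs, and AKR1C1 inactivates progesterone, AKR1C2 inactivates dihydrotestosterone, and AKR1C3 makes testosterone and reduces prostaglandins. The genes lie on chromosome 10 (GRCh38), AKR1C1 at 4963253 to 4983283 on the plus strand, AKR1C2 at 4987775 to 5018031 on the minus strand and AKR1C3 at 5035354 to 5107686 on the plus strand. Their coding sequences are 969 bases each. That of AKR1C1 differs from AKR1C2 at 19 bases (98.0% identity) and from AKR1C3 at 83 (91.4%), and 3 of the 9 coding exons do not differ at all between AKR1C1 and AKR1C2. The second coding exon (168 bases, GENCODE release 44, chr10:4965914-4966081 on the plus strand for AKR1C1, chr10:5001514-5001681 on the minus strand for AKR1C2 and chr10:5096410-5096577 on the plus strand for AKR1C3) is shown 5′ to 3′ because it holds more of the bases that separate AKR1C1 from AKR1C2 than any other coding exon, with capitals at the 17 positions where the 3 genes are not all alike.
AKR1C1: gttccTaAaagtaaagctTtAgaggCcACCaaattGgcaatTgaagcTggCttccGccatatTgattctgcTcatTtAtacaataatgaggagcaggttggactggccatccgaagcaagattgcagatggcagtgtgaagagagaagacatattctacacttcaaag
AKR1C2: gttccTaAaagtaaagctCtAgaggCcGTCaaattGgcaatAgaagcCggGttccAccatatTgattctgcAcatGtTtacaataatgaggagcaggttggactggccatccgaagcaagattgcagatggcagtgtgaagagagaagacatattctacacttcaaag
AKR1C3: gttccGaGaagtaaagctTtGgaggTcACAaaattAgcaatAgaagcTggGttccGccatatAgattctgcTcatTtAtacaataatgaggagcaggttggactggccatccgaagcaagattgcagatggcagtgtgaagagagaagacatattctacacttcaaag
AKR1C1 and AKR1C2 differ at 10 bases of this exon, and its last 90 bases are the same in all 3 genes. Of the words of 50 bases in the canonical transcript, 22.3% of those of AKR1C1 also occur in AKR1C2, 45.7% of those of AKR1C2 occur in AKR1C1, and 18.6% of those of AKR1C3 occur in another AKR1C gene. The division of reads among the copies is therefore uncertain, and the sum of the 3 was also tested. How reads that align to several copies were counted was not examined, so the levels of the 3 genes and their sum may lack some reads.

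AKR1C1 had 172 and 57 counts in untreated replicates 1 and 2 and 1093 and 805 counts in doxorubicin replicates 1 and 2, or 4.74, 1.97, 31.9 and 29.2 CPM. Both treated libraries were far above both untreated ones, and the untreated libraries differed from each other more than the treated ones did. The log2FC was 3.01 (standard error, SE, 0.57, adjusted p-value 0.773 in the quasi-likelihood test of edgeR, adjusted by Benjamini-Hochberg over all genes), so that AKR1C1 was not called. Without untreated replicate 2 it rose by 2.54 on the log2 scale (SE 0.31, adjusted p-value 2.77e-13 in edgeR), and without untreated replicate 1 by 3.87 (SE 0.36, adjusted p-value 7.81e-25 in edgeR). Without doxorubicin replicate 1 the log2FC was 2.92 (SE 1.12) and without doxorubicin replicate 2 it was 3.14 (SE 1.12), and AKR1C1 was called in neither of these fits (adjusted p-values of 1.00 in edgeR), which called 0 genes (78 and 116 at an unadjusted p-value under 0.05). With all 4 libraries DESeq2 also called AKR1C1 (log2FC 2.98, adjusted p-value 0.000555), where it called 0.263% of all genes as higher and 0.246% as lower, and so did the likelihood ratio test of edgeR (adjusted p-value 0.00715, with 0.32% and 0.0458% of all genes). With the replicate number as a block (0.0915% and 0.0229% of all genes called) AKR1C1 had an adjusted p-value of 0.0516 in edgeR.

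AKR1C2 had 96 and 28 counts in untreated cells and 397 and 254 counts in treated cells, or 2.65, 0.97, 11.6 and 9.21 CPM. The groups did not overlap, and untreated replicate 2 was again the lowest. Its log2FC was 2.34 (SE 0.64, adjusted p-value 0.773 in edgeR). Without untreated replicate 2 AKR1C2 rose by 1.83 on the log2 scale (SE 0.35, adjusted p-value 2.74e-05 in edgeR), and without untreated replicate 1 by 3.34 (SE 0.43, adjusted p-value 1.91e-13 in edgeR). DESeq2 over all libraries gave 2.32 with an adjusted p-value of 0.0878.

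AKR1C3, the most abundant of the 3 genes, had 65.3 and 34.9 CPM in untreated cells and 97.7 and 95.3 CPM in treated cells. The treated libraries lay close together and above both untreated ones. Its log2FC was 0.79 (SE 0.42, adjusted p-value 0.773 in edgeR). It was 0.42 without untreated replicate 2 (adjusted p-value 0.331 in edgeR), which did not pass the test, and 1.38 without untreated replicate 1 (adjusted p-value 3.33e-07 in edgeR), which did.

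The 3 genes together had 72.7 and 37.8 CPM in untreated cells and 141.1 and 133.7 CPM in treated cells. The log2FC of the sum was 1.16 (SE 0.42, adjusted p-value 0.773 in edgeR), with 0.77 (SE 0.24, adjusted p-value 0.0255) without untreated replicate 2, which is under the fold threshold, and 1.78 (SE 0.26, adjusted p-value 5.14e-11) without untreated replicate 1. The division among the genes also differed between the groups. AKR1C1 took 6.52% and 5.22% of the summed counts without the drug and 22.6% and 21.8% with it, and AKR1C2 took 3.64% and 2.56% against 8.20% and 6.89%. AKR1C3 took 89.8% and 92.2% against 69.2% and 71.3%. AKR1C4, the liver member of the family, had a CPM of at most 0.145 in any library.

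**Figure D2:**
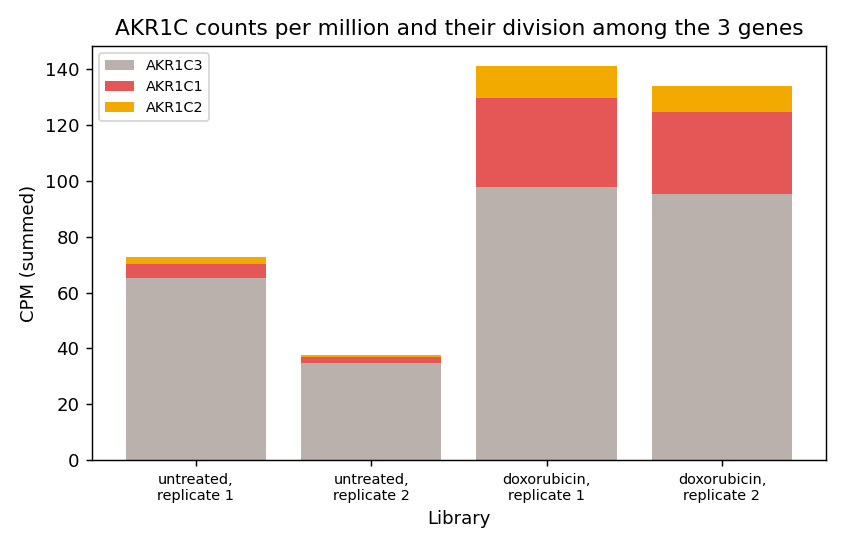
CPM of AKR1C1 (red), AKR1C2 (yellow) and AKR1C3 (grey) stacked for each of the 4 libraries, on an axis that starts at 0. The summed CPM is 72.7 and 37.8 in the untreated libraries and 141.1 and 133.7 in the doxorubicin libraries, and AKR1C1 takes 22.6% and 21.8% of it after doxorubicin.

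As the 3 AKR1C genes were all higher in the treated libraries, their promoters were compared. RefSeq (GRCh38.p14) gave a promoter of 300 bases, of which 50 lie after the start site, for 8 of the 10 reductase genes. A single start site was used for each gene. The window of AKR1C3 (chr10:5048531-5048830) lies inside the span of the gene (5035354 to 5107686). Its second coding exon lies far downstream (5096410-5096577), and the window was not matched to the canonical transcript used above. The window of AKR1C2 (chr10:5003808-5004107) also lies inside the span of its gene. Whether these start sites were in use in the libraries was not tested. The promoters of AKR1C1 and AKR1C2 were 93.5% identical when aligned, those of AKR1C1 and AKR1C3 74.7%, and those of AKR1C2 and AKR1C3 70.2%. By contrast AKR1C1 had 43.6% to 48.3% with the promoters of the other 5 genes. The 150 bases before the start site are shown 5′ to 3′ (chr10:4963265-4963414 on the plus strand for AKR1C1, chr10:5003858-5004007 on the minus strand for AKR1C2 and chr10:5048631-5048780 on the plus strand for AKR1C3), with capitals at the match to the CCAAT box.
AKR1C1: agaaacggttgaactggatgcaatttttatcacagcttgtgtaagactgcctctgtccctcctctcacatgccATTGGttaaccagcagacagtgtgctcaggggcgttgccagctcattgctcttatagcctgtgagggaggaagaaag
AKR1C2: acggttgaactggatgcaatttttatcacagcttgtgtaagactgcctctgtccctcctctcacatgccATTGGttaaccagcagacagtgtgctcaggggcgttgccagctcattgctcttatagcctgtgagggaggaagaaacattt
AKR1C3: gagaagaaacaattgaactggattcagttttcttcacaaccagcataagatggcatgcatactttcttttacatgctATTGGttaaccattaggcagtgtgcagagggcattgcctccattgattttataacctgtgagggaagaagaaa
The letters CCAAT, searched on both strands, occurred on the minus strand at positions -77, -81 and -73 from the start sites used for AKR1C1, AKR1C2 and AKR1C3. They also occurred in AKR1B1 at -98, and in 35.7% of 27305 promoters of the same length. The letters TGACNNNGC of the antioxidant response element, through which NRF2 acts, occurred in CBR1 (1 match) and AKR7A2 (3 matches) and in 13.6% of all promoters. They were not found in this window of the AKR1C genes or NQO1. The window reaches 250 bases before the start site, so the search could not find elements farther upstream. The letters TGANTCA of an AP-1 site, which can overlap the former, were in none of the 8 windows and in 7.76% of all promoters.

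CBR1 encodes the cytosolic carbonyl reductase that is regarded as a main source of doxorubicinol (chromosome 21, 36069941 to 36073166). It had 85.2 and 76.7 CPM in untreated cells and 80.4 and 69.8 CPM in treated cells, so that the groups overlapped and the 4 values stayed close together. The fitted log2FC was -0.26 (SE 0.32, adjusted p-value 0.821 in edgeR), and -0.33 without untreated replicate 2. In each pair of replicates, replicate 2 had 0.90 (untreated) and 0.868 (doxorubicin) times the CPM of replicate 1, a spread as wide as the ratio of 0.927 between the means of treated and untreated cells.

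CBR3 (chromosome 21, 36135079 to 36146562) lies next to CBR1 and encodes a related enzyme with a narrower range of substrates. It was the reductase with the fewest counts in treated cells, with 31 and 123 counts in untreated cells and 50 and 31 counts in treated cells. These are 0.855, 4.26, 1.46 and 1.12 CPM, and the 95% exact Poisson interval of untreated replicate 1 was 0.581 to 1.21 CPM against 3.54 to 5.08 CPM in untreated replicate 2 (counting error only). The single high library was untreated replicate 2, 4.98 times untreated replicate 1. The log2FC was -1.09 (SE 0.88, adjusted p-value 0.777 in edgeR) and turned to 0.46 without untreated replicate 2, while it was -1.79 (adjusted p-value 2.91e-05 in edgeR) without untreated replicate 1. CBR3-AS1, a gene on the opposite strand that shares 710 exonic bases with CBR3, had 4 and 43 counts in untreated and 14 and 10 counts in treated cells. It was highest in the same library, and since the use of strand in counting is not stated, reads of CBR3 and CBR3-AS1 cannot be told apart.

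AKR1B1, the aldose reductase that turns glucose into sorbitol (chromosome 7, 134442356 to 134459284), had by far the most counts of the 10 genes. It had 1284 and 2187 CPM in untreated cells and 1567 and 1358 CPM in treated cells, and it alone took 66.7% to 73.9% of the summed counts of the 10 genes. The treated libraries lay between the untreated ones. AKR1B1 had a log2FC of -0.40 (SE 0.34, adjusted p-value 0.781 in edgeR) and 0.043 without untreated replicate 2.

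AKR1A1, the aldehyde reductase (chromosome 1, 45550543 to 45570049), had 76.6 and 107 CPM in untreated cells and 92.3 and 73.6 CPM in treated cells. AKR7A2, which reduces succinic semialdehyde and the dialdehyde of aflatoxin (chromosome 1, 19303965 to 19312144), had 69.2 and 99.7 CPM in untreated cells and 70.3 and 59.2 CPM in treated cells. In both genes untreated replicate 2 was the highest library and the groups overlapped. The log2FC values were -0.29 for AKR1A1 and -0.54 for AKR7A2 (SE 0.36 and 0.36, adjusted p-values 0.819 and 0.773 in edgeR), and -0.03 and -0.24 without untreated replicate 2.

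NQO1, the quinone reductase and a well-known NRF2 target (chromosome 16, 69706996 to 69726668), had 170.4 and 268 CPM in untreated cells and 204 and 210.5 CPM in treated cells. Both treated libraries lay between the untreated ones. Its log2FC was -0.23 (SE 0.34, adjusted p-value 0.840 in edgeR) and turned to 0.14 without untreated replicate 2 (SE 0.22, adjusted p-value 0.798 in edgeR).

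POR, which carries electrons from NADPH to cytochrome P450 enzymes and can reduce the quinone of doxorubicin by a single electron (chromosome 7, 75899200 to 75986855), had 157 and 178 CPM in untreated cells and 142 and 129 CPM in treated cells. It was the only gene of the 10 that was lower in both treated libraries than in both untreated ones, as were 11.5% of all genes tested. The log2FC was -0.46 (SE 0.30, adjusted p-value 0.773 in edgeR), -0.36 without untreated replicate 2 (adjusted p-value 0.394 in edgeR) and -0.48 without untreated replicate 1 (adjusted p-value 0.0589 in edgeR). POR shares 25 exonic bases with TMEM120A on the opposite strand. Larger overlaps were found for CBR1, with 464 exonic bases of CBR1-AS1 on the opposite strand and 381 of ENSG00000289001 on the same strand. NQO1 shares 575 with ENSG00000261602 on the opposite strand. These overlapping genes of CBR1 and NQO1 are not among the symbols of the counts, so reads from the shared bases cannot be told apart.

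**Figure D3:**
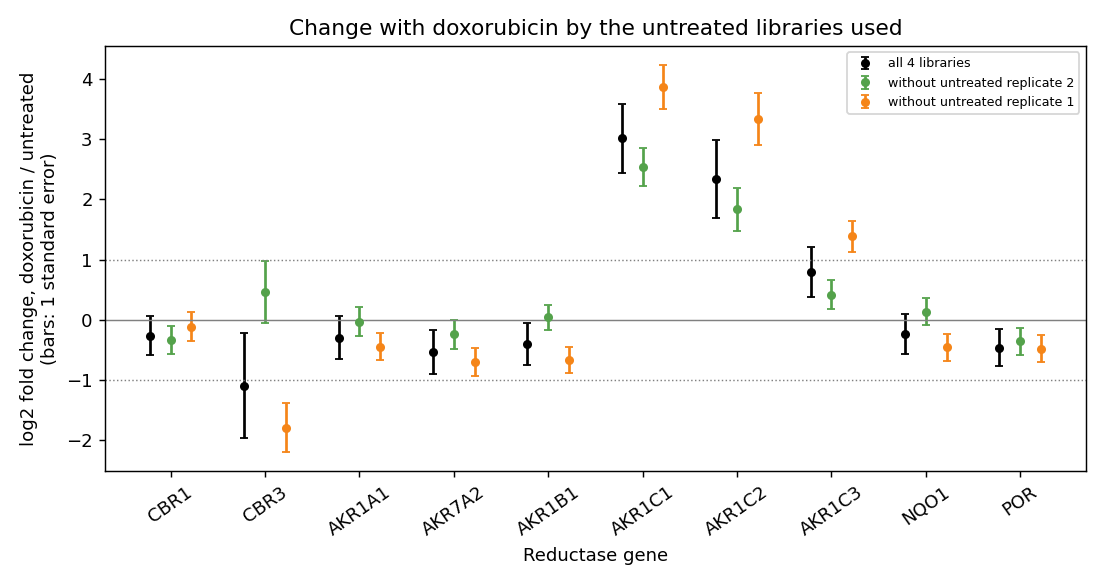
Fitted log2FC (doxorubicin over untreated) of the 10 reductase genes with all 4 libraries (black), without untreated replicate 2 (green) and without untreated replicate 1 (orange), with bars of 1 SE and dotted lines at the fold threshold of 1 in size. AKR1C1 (2.54 to 3.87) and AKR1C2 (1.83 to 3.34) stay above the upper line in all 3 fits, while CBR3, AKR1B1 and NQO1 change sign without untreated replicate 2.

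Of the 10 reductase genes, 0 were called (adjusted p-value in edgeR under 0.05 with a log2FC of 1 or more in either direction), beside 0% of all genes tested in either direction (unadjusted p-value under 0.05 in 465 genes that were higher and 303 that were lower). At an unadjusted p-value under 0.05 (edgeR), 2 were higher (AKR1C1 and AKR1C2) beside 2.66% of all genes, and 0 were lower beside 1.73%. Their median log2FC was -0.28, with 3 above 0 and 7 below, against 0.01 over all genes tested. Without untreated replicate 2 the median was 0.090 against 0.05 over all genes, and 2 genes were called as higher beside 3.88% of all genes and 0 as lower beside 0.556%. Without untreated replicate 1, 3 genes were called as higher beside 21.2% and 1 (CBR3) as lower beside 23.2%. In fits with 1 untreated library that library is assumed to vary as little as the doxorubicin pair, although the untreated pair differed far more. In counts of CPM without overlap, 3 genes were higher in both treated libraries beside 30.3% of all genes, and 1 (POR) was lower in both beside 11.5%. With 2 libraries a group, an exact permutation test of a single gene cannot give a two-sided p-value under 0.333.

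Levels of different genes were compared per length, as CPM per kb of exon (RPKM). In untreated cells AKR1B1 was highest, at 1275 ± 470 RPKM (SD, n = 2), above NQO1 (77.1 ± 24.3), AKR7A2 (62.1 ± 15.8), POR (43.1 ± 3.85), AKR1A1 (38.4 ± 8.88), CBR1 (33.1 ± 2.45), AKR1C3 (31.1 ± 13.4), CBR3 (2.56 ± 2.41), AKR1C1 (0.486 ± 0.283) and AKR1C2 (0.461 ± 0.302). The replicates of NQO1 and AKR7A2 overlapped, as did those of each pair of neighbours from POR to AKR1C3 and those of AKR1C1 and AKR1C2. In treated cells AKR1C3 (59.9 ± 1.04 RPKM) stood below AKR1B1 and NQO1 and above AKR7A2 (47.6 ± 5.76) with no overlap, and AKR1C1 (4.41 ± 0.272) and AKR1C2 (2.65 ± 0.425) stood above CBR3 (1.29 ± 0.236). The annotation gives AKR1C1 long exons (6915 bases in all against a coding length of 969). Per kb of coding length, a choice made after seeing the data, AKR1C1 had 3.47 in untreated and 31.5 in treated cells, which placed it above CBR3 in untreated cells as well, with overlapping replicates. The order of the middle genes depended on the length too. In untreated cells CBR1 (97.5 per kb of coding length) then stood next after NQO1, above AKR1A1 (94.0), POR (82.6), AKR7A2 (78.4) and AKR1C3 (51.7), and each neighbouring pair from CBR1 to AKR1C3 overlapped.

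Related genes were examined as 6 lists of pathway genes. Of the 70 of these genes that were tested, 0 were called with all libraries (edgeR). In the fit without untreated replicate 2, 7 of 70 were called as higher and 0 as lower, beside 3.88% and 0.556% of all genes. Without untreated replicate 1, 11 of 71 were called as higher and 15 as lower, beside 21.2% and 23.2% of all genes. NRF2 is the transcription factor that switches on genes against electrophiles and oxidants, AKR1C and NQO1 genes among them. Of 12 genes of its list, 12 were tested and 10 had a log2FC above 0, beside 8873 of the 17479 genes tested. The median was 0.60 against 0.01 over all genes. In this list 3 genes were higher at an unadjusted p-value under 0.05 (edgeR), beside 2.66% of all genes. In both treated libraries 7 genes of the list were higher than in both untreated ones, beside 30.3% of all genes.

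Without untreated replicate 2 all 12 genes of the NRF2 list were above 0 with a median of 0.74. Of all genes in that fit, 9963 of 18356 were above 0, with a median of 0.05. The largest rises of the list were those of MAFF (1.54), HMOX1 (1.47), BACH1 (1.13), SLC7A11 (1.07) and OSGIN1 (1.02), of which BACH1, HMOX1 and OSGIN1 were singled out after their values were seen. Without untreated replicate 1, SLC7A11 (2.56), BACH1 (1.51), HMOX1 (0.78) and OSGIN1 (0.32) were above 0 too. In that fit MAFF (-1.12), MAFG (-0.59), GCLC (-0.02) and SRXN1 (-0.01) were below 0, so the rise of the whole list depended on the untreated library used. SLC7A11, the cystine transporter that feeds glutathione synthesis, had the highest change of the list with all libraries. It had 91.3 and 34.0 CPM in untreated and 210.0 and 214 CPM in treated cells, a log2FC of 1.60 (SE 0.52) and of 1.07 without untreated replicate 2 (adjusted p-value 0.000478 in edgeR). HMOX1, heme oxygenase, had 20.5 and 34.3 CPM in untreated and 63.6 and 61.6 CPM in treated cells. MAFF, a small partner protein of NRF2, had the lowest change of the list at -0.39 and 1.54 without untreated replicate 2, with 22.2 and 146 CPM in untreated and 67.8 and 75.2 CPM in treated cells. KEAP1, which keeps NRF2 low and was the gene of the list with the most counts per length, had a log2FC of 0.23 (SE 0.34).

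Of 20 other carbonyl reducing enzymes 16 were tested, with a median log2FC of -0.03 and 8 above 0. DCXR, the L-xylulose reductase with the most counts per length, had 98.2 and 231 CPM in untreated and 82.8 and 73.0 CPM in treated cells, a log2FC of -1.23 (SE 0.48), and of -0.48 without untreated replicate 2. The highest and lowest of the list, DHRS9 and AKR7L, had at most 38 counts in any library. DHRS9 had 0 and 11 counts in untreated and 7 and 29 in treated cells, and AKR1B15 had 0 and 12 counts in untreated and 15 and 8 in treated cells. These 2 genes were called as higher without untreated replicate 2, against 0 counts in untreated replicate 1. Against the floor of 3 counts in that library their treated mean was at least 7.59-fold and at least 4.40-fold higher, and the median of the list without untreated replicate 2 was 0.07 with or without these bounds.

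Of 14 other quinone and single-electron reductases 11 were tested, with a median log2FC of -0.24. TXNRD1, thioredoxin reductase, was the most abundant of them per length over all 4 libraries, but not in untreated cells, where NDUFS3 (74.8 RPKM) and CYB5R3 (74.2) were above it (65.4). It had 487 and 183 CPM in untreated and 708 and 934 CPM in treated cells, a log2FC of 1.13 (SE 0.50) that was 0.60 without untreated replicate 2 (adjusted p-value 0.0750 in edgeR). FDXR, the adrenodoxin reductase of mitochondria, was the lowest at -1.21 and -0.14 without untreated replicate 2. NOS3, the highest at 1.26, had at most 17 counts.

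Enzymes that supply NADPH, the electron donor of all these reductases, had 10 of 11 listed genes tested and a median log2FC of -0.17. ME3 was the highest at 0.59, and TKT, the most abundant per length, had -0.41. Among 13 tested genes of 14 that remove superoxide and peroxides, the median was -0.32. PRDX6, a peroxiredoxin, was the lowest, with 456 and 675 CPM in untreated and 331 and 337 CPM in treated cells (log2FC -0.92, SE 0.31). SOD3 was the highest at 2.40 on at most 23 counts, and PRDX1, the most abundant per length over all 4 libraries but below TXN and PRDX2 in treated cells, had -0.56. Of 12 conjugating enzymes and transporters 8 were tested, with a median of -0.16. ABCB1, the efflux pump that carries doxorubicin out of cells, was the lowest with 16.1 and 27.2 CPM in untreated and 8.86 and 9.47 CPM in treated cells. Its log2FC was -1.39 (SE 0.46), and -0.96 without untreated replicate 2 (adjusted p-value 0.0160 in edgeR), which is under the fold threshold. GSTA4 was the highest at 1.89 on at most 29 counts, and GSTP1, the most abundant per length, had -0.82 and -0.18 without untreated replicate 2.

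**Figure D4:**
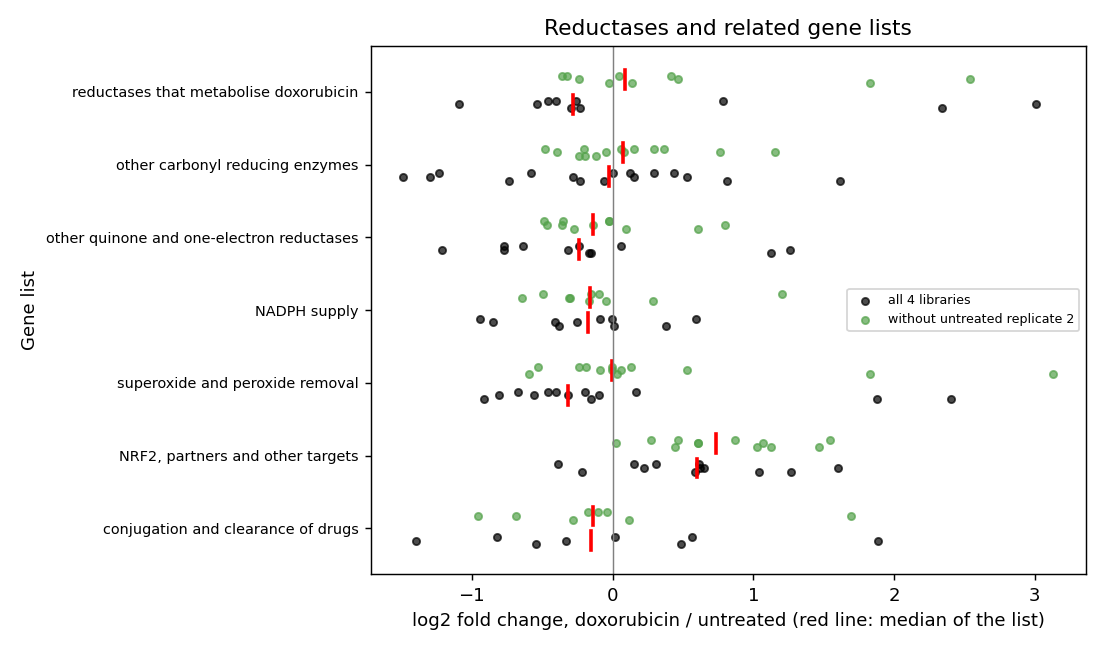
Fitted log2FC (doxorubicin over untreated) of each tested gene in the reductase set and the 6 related lists, in black with all 4 libraries and in green without untreated replicate 2, with a red line at the median of each list. The NRF2 list has medians of 0.60 and 0.74, while the other lists lie between -0.32 and 0.090. DHRS9 and AKR1B15, with 0 counts in untreated replicate 1, count in the green median but are not drawn in green.

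The genes with a pattern most like that of the AKR1C sum were GBP2, LINC02582 and IL1R1, with root mean square differences of 0.0302, 0.0328 and 0.0431 in centred log2 CPM over the 4 libraries. LINC02582 had 66.2 and 34.5 CPM in untreated and 133.3 and 128.4 CPM in treated cells. GBP2 and IL1R1 had few counts, with 0.485 and 0.519 CPM in untreated replicate 2, so that counting error limits their likeness. All genes named here are the closest picked from the genes tested, over only 4 libraries, and their likeness was not tested. The nearest to CBR1 were TOP3A, ARFIP2 and RABEPK (0.00898 to 0.0187), to NQO1 PDE4DIP, WBP2 and INPP5E (0.0119 to 0.0170), and to POR ZNF526, CHTF18 and RPS16 (0.00616 to 0.0181). WBP2 had 178 and 278 CPM in untreated and 213 and 215 CPM in treated cells, with untreated replicate 2 the highest as in NQO1.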

How the data were processed

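The authors checked read quality (FastQC), trimmed adapters (Cutadapt), aligned to hg38 (HISAT2) and deposited raw counts per gene for each library. HTSeq is named for counting, and the file header names GENCODE release 31. Versions and the use of strand are not given in the sources used here. Groups followed the titles and the treatment protocol, since the tag for treatment reads p53-miRNA where doxorubicin was given.

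Counts of all genes went through filterByExpr and TMM scaling, and glmQLFit (newer form, prior count 0.125) with glmQLFTest was run (edgeR 4.0.16, R 4.3.3), with Benjamini-Hochberg adjustment. Called genes had an adjusted p-value under 0.05 and a log2FC of 1 or more in either direction, the thresholds of the study's methods. With edgeR at these thresholds the study reports many mRNAs changed in both directions, where the main fit here called none. Its methods do not name the test, filter or normalization. CPM was the count over the column total. A count of 3 corresponds to 0.0827 to 0.109 CPM, which covers counting error only. Positions and lengths came from GENCODE release 44 (GRCh38), which matched 36718 of 59050 symbols, and promoters from RefSeq. The script was tested on simulated data. DESeq2 1.42.0, other normalizations and filters, a replicate block and leaving out each library were alternatives. Named genes were the 10 reductases, and in each list the genes with the highest and the lowest change and the most counts per length. The reductases and lists were chosen with earlier results of these data known. PGLS of the NADPH list was not analysed here. A gene that the rule names is not reported here.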

Additional observations from a re-analysis of the deposited data

How the results depend on the processing

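With 2 libraries a group, calls depended on the test and on the libraries used. Against 0 calls in edgeR's quasi-likelihood test (768 genes at an unadjusted p-value under 0.05), DESeq2 called 46 genes as higher and 43 as lower, and the likelihood ratio test 56 and 8. Each of these 2 tests called 1 reductase gene, AKR1C1, as higher. The cause was not tested. The replicate numbers are shared between the groups in the labels, but whether libraries with the same number were made together is not stated. The deviations of libraries with the same number had a correlation of 0.0219. As untreated replicate 2 stood apart from the other libraries, this value cannot decide whether the libraries were paired. With the replicate block 16 genes were called as higher and 4 as lower, 0 of them reductases (AKR1C1 had a log2 fold change of 3.13 and an adjusted p-value of 0.0516, edgeR).

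Leaving out each library in turn gave 0 to 4149 genes called as higher and 0 to 4548 as lower, 0 to 3 and 0 to 1 reductase genes, and 0 to 11 and 0 to 15 genes of the pathway lists. The upper ends come from the fit without untreated replicate 1. Without untreated replicate 2 the counts were 713 and 102 genes, 2 and 0 reductases, and 7 and 0 pathway genes. The log2 fold change ranged from -0.66 to 0.043 for AKR1B1, from -1.79 to 0.46 for CBR3, from -0.45 to 0.14 for NQO1 and from 0.77 to 1.78 for the AKR1C sum, and the median of the reductases from -0.45 to 0.090. Without untreated replicate 2, the sign turned to 0.043 for AKR1B1, 0.46 for CBR3, 0.14 for NQO1 and 0.090 for the median.

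AKR1C1, AKR1C2 and AKR1C3 kept their direction under every alternative that was run. Library size alone in place of TMM moved the median of all genes to 0.17, with 3.17 for AKR1C1, 2.49 for AKR1C2 and 0.94 for AKR1C3. An older form of edgeR's quasi-likelihood fit, added after seeing the data, called 0 genes too (703 at an unadjusted p-value under 0.05). Depth limits CBR3 and AKR1C2, which had as few as 31 and 28 counts in a library.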
